A study of Homo sapiens with 22 samples.

Results

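The genes described here are 39 genes of mitosis and of the spindle checkpoint, listed by symbol. Of these, 37 were measured by an array element annotated to exactly 1 gene symbol, among 15461 genes that had such an element, and KIF2C and KIFC1 had none and were not analysed here. Where a gene had several elements, which was the case for 4 of the 37 (BIRC5, BUB3, CDC20 and CENPA), the element with the highest mean over the 22 arrays was used. Levels are log2 values of the normalized array signal. A difference is the log2 level in the treated culture minus the log2 level in the untreated culture of the same cell line, so that -1 is a 2-fold lower signal.

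The arrays were run on 11 established human B-cell lymphoma cell lines, each with 1 culture given aza and TSA (aza/tsa) and 1 culture grown in parallel without the drugs (untreated). Aza, 5-aza-2'-deoxycytidine, traps DNA methyltransferases so that methylation is lost as DNA is copied, and TSA, trichostatin A, inhibits histone deacetylases. The aza/tsa cultures were kept for 72 h with 1 µM aza, renewed every 24 h, and received 0.5 µM TSA in the last 12 h. The study used genes that were higher after treatment as a first screen for genes methylated in B-cell lymphoma. Raji, Ramos and BL41 are Burkitt lymphoma lines by the methods of the study, HLY-1, Ocily3, Ocily10, Sudhl4 and Sudhl6 diffuse large B-cell lymphoma lines, and K422, SC-1 and ROS-50 follicular lymphoma lines, but the sample labels give the line only and the types were not compared. No culture received a single drug, each line is represented by 1 culture per condition, and the effects of aza and of TSA cannot be told apart.

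A cell enters mitosis when cyclin B bound to CDK1 is switched on by the CDC25 phosphatases. Aurora and Polo-like kinases then build the spindle, kinetochores attach the chromosomes to it, and the spindle checkpoint holds the anaphase-promoting complex (APC/C) inactive until every kinetochore is attached. Once CDC20 is released, the APC/C marks cyclin B and securin for destruction, separase cuts cohesin, and the cell divides. Most of these genes are transcribed only in late S, G2 and M phase, and their promoters are known for CCAAT boxes, bound by NF-Y, and for cell cycle genes homology regions (CHR), bound by the MuvB complexes and, through them, by FOXM1 and B-MYB. High levels of this program are typical of fast-growing lymphoma lines.

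The promoter windows of 6 of the most changed genes are shown because they hold the letters that the mitosis genes share. Each window runs from 250 bases before to 50 bases after an annotated RefSeq transcription start (build GRCh38.p14) and is printed 5′ to 3′ on the strand of the gene. Capitals mark a CHR (TTTGAA or TTCGAA) or a CCAAT box (CCAAT, or ATTGG where it lies on the opposite strand). The first 3 genes fell and the last 3 rose after aza/tsa.
PLK1: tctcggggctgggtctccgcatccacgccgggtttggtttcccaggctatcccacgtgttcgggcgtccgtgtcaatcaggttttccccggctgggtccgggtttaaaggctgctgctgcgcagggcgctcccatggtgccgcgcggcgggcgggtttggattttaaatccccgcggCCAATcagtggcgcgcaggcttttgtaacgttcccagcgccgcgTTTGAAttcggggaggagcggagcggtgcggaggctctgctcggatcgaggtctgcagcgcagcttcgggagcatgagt
CCNA2: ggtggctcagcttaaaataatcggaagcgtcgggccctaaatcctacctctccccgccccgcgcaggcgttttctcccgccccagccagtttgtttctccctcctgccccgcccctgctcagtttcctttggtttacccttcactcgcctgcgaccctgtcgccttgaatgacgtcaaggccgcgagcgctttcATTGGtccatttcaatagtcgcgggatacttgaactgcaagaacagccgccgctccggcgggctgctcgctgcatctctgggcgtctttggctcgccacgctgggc
BUB1B: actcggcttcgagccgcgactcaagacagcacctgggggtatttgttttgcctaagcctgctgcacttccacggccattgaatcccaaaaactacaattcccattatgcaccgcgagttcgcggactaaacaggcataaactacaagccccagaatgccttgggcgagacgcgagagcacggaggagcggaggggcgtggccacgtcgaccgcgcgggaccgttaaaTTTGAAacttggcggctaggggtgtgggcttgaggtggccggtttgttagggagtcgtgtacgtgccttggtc
NEK2: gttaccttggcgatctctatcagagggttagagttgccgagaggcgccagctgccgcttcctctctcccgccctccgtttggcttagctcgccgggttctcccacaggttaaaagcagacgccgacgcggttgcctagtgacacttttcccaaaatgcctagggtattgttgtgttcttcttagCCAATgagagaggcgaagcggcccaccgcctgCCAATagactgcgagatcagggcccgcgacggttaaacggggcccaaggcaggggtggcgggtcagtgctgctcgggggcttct
PTTG1: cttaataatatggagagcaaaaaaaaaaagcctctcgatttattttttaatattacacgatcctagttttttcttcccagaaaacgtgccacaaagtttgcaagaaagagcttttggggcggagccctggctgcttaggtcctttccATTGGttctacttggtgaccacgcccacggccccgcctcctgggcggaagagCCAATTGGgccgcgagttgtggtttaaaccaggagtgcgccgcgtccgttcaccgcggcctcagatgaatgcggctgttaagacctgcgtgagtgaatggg
CDC25C: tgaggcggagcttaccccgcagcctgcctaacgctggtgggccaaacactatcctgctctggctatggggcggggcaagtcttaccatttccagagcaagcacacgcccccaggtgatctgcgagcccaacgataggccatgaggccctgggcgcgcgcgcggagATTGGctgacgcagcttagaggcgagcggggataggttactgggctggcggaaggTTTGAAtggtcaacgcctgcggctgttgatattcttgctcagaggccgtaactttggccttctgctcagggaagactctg
The PLK1 window (chr16:23678639-23678938, plus strand) held a CCAAT box starting 73 bases and a CHR starting 29 bases before the transcription start. In BUB1B (chr15:40160819-40161118, plus strand) a CHR began 23 bases before the start, and in CCNA2 (chr4:121823834-121824133, minus strand) a reverse CCAAT box began 56 bases before it, with neither CHR spelling in the window. Among the genes that rose, CDC25C had a window (chr5:138331755-138332054, minus strand) with a CHR 30 bases and a reverse CCAAT box 85 bases before the start. CDC25C has several windows, some with neither motif, and this one was picked for its CHR before the start. NEK2 (chr1:211675572-211675871, minus strand) had 2 CCAAT boxes, 66 and 34 bases before the start. PTTG1 (chr5:160421605-160421904, plus strand) had 3, at 103, 51 and 48 bases before the start, of which the last 2 overlap on opposite strands.

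RefSeq windows were found for 30 of the 37 measured genes, in 41 windows since 7 genes had several starts, and none was matched for FOXM1, AURKA, BIRC5, BUB3, TTK, TPX2 or UBE2C. A CHR on either strand was present in 25 of the 41 windows (61%), against 16.4% of all 35116 windows in the table. A CCAAT box was present in 29 windows (70.7%), against 34.6% of all windows. An E2F site (TTTGGCG or TTTCGCG, either strand) was present in 5 windows (12.2%), against 3.19% of all windows, and the forkhead letters TGTTTAC on either strand in 1 window, of CDK1 (2.44%), against 3.42%. The first base of the 31 CHR matches lay at a median of 29 bases before the start, and that of the 54 CCAAT boxes at a median of 78.5 bases before it. These are matches of letters and not measured binding sites.

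The letters were also found in genes that did not fall. A CHR was found in 12 of 19 windows of genes that fell, in 2 of 7 windows of genes that rose (both of CDC25C) and in 11 of 15 windows of genes that were not called. The 2 CDC25C windows overlap and share the same CHR. Counted by gene, these were 11 of 15 genes that fell, 1 of 3 that rose and 11 of 12 that were not called. Windows of the mitosis genes held a median of 24 CpG dinucleotides per 300 bases, against 14 in all windows, with an observed over expected ratio of 0.896, against 0.579. No methylation of these windows was analysed here.

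**Figure D1:**
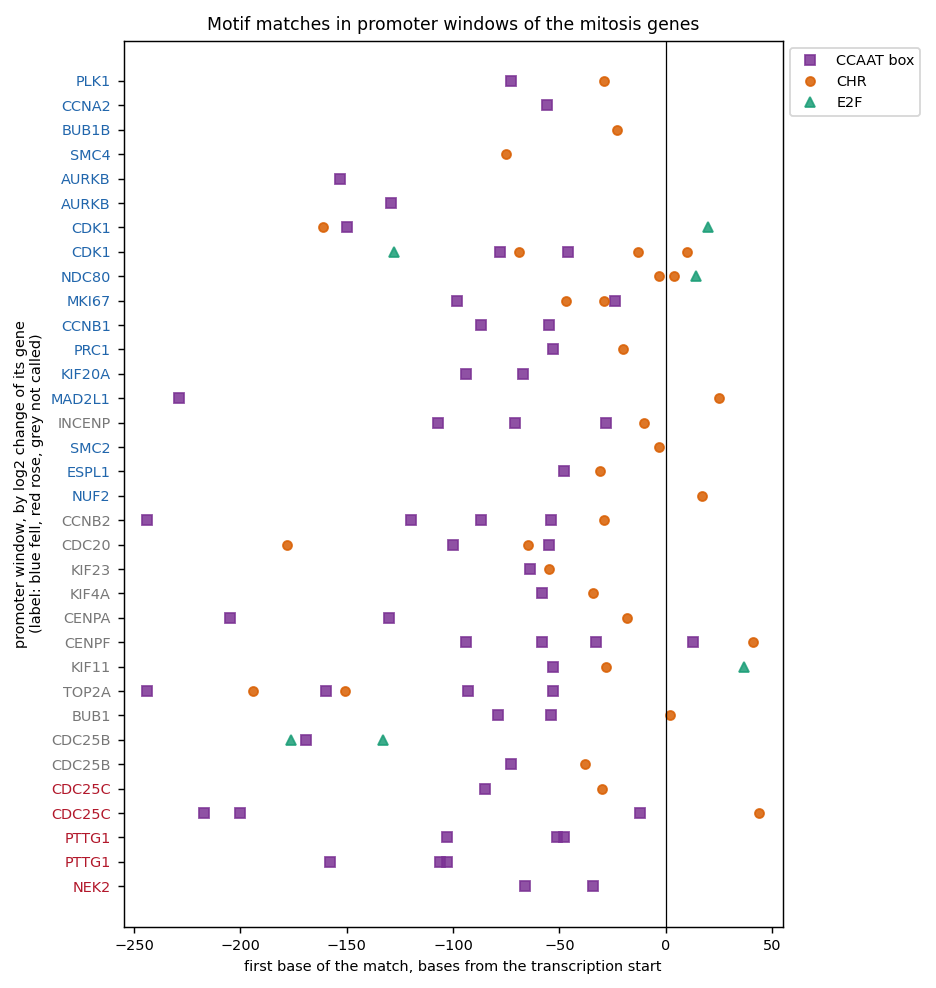
Positions of CCAAT boxes (squares), CHR (circles) and E2F letters (triangles) in the promoter windows of the mitosis genes that held at least 1 of them, in bases from the transcription start (vertical line), 1 row per window, ordered by the log2 change of the gene. CHR matches gather just before the start in rows of genes that fell (blue names) and of genes that were not called (grey names), and of the genes that rose (red names) only CDC25C has one.

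All 37 genes were carried through without a filter on low signals. Of them, 34 were above the median of the array on all 22 arrays, the exceptions being PLK1, BUB1B and INCENP. INCENP exceeded the array median in 4 of 11 aza/tsa and 6 of 11 untreated arrays, so its levels lie around the middle of the array. PLK1 and BUB1B fell below it in 1 aza/tsa array each, that of BL41. 3 lines, HLY-1, Ocily10 and Sudhl4, had a low raw signal, with 75th percentiles of 2901 to 4547, against 4310 to 15058 in the other 8 lines. The ranges overlap at the aza/tsa array of BL41 (4310). Counts are also given without HLY-1, Ocily10 and Sudhl4. The B-cell label was checked with 4 measured markers (CD22, CD79A, CD79B and MS4A1), each above the array median in 10 or 11 of 11 arrays in either group. The array with the fewest of them above its median had 1 of 4 in aza/tsa and 2 of 4 in untreated cultures. The summed signal of the 4 markers ranged from 12.04 to 18.2 (log2) in aza/tsa and from 13.8 to 20.43 in untreated cultures, and all 4 fell. None of 4 T-cell or 3 measured myeloid markers passed the test for a change. The summed T-cell signal ranged from 10.65 to 15.15 in aza/tsa and from 10.3 to 17.09 in untreated cultures. The summed myeloid signal ranged from 10.37 to 14.4 and from 10.44 to 14.4. The highest of these sums lay above the lowest B-cell sums. EPCAM and CDH1, of 3 epithelial markers, rose, and the summed signal of these 3 ranged from 10.46 to 13.3 in aza/tsa and from 9.43 to 12.01 in untreated cultures. The part of these shifts in the results below was not tested.

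After aza/tsa, 20 of the 37 mitosis genes fell, 3 rose and 14 were not called (limma, lines entered as blocks, Benjamini-Hochberg adjusted p below 0.05 over all 32878 elements). By the same test 12.4% of all elements fell and 11.2% rose, and among all 15461 genes 15.2% fell and 15.1% rose. These backgrounds include dim elements. A filter on dim elements kept 16945, those above the array median in at least 6 of 11 arrays of the group with the higher mean. Of these 4273 fell and 3931 rose, larger shares than without the filter, beside 22 and 4 of the 37 genes. The median log2 change of the 37 genes was -0.51, with quartiles of -0.74 and -0.24, beside a median of -0.01 over all genes. The mean change was below 0 for 31 of the 37 genes (83.8%), against 50.9% of all genes. Without HLY-1, Ocily10 and Sudhl4, 12 of the 37 genes fell and 3 rose, while 3220 of all 32878 elements fell and 3067 rose. The 8 calls lost without these lines were those of CCNB1 (-0.66, adjusted p = 0.0647, limma), NDC80 (-0.73, adjusted p = 0.0523) and PRC1 (-0.57, adjusted p = 0.0996), and those of MKI67, SMC2, NUF2, KIF20A and ESPL1. With the raw signals scaled to a common median in place of quantile normalization, 30 fell and 3 rose, while 5637 of all elements fell and 2603 rose, against 4064 and 3674 in the deposited scaling. The 10 further genes that fell with median scaling were TOP2A (-0.62), CCNB2 (-0.78), BIRC5 (-0.76), TTK (-0.65), CENPA (-0.65), CENPF (-0.62), KIF11 (-0.59), KIF23 (-0.66), KIF4A (-0.51) and CDC20 (-0.66), and these are described below as not called because the deposited scaling did not call them. The cultures were measured in bulk, so that fewer cells in mitosis and less RNA of these genes in each cell cannot be told apart.

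The decrease was moderate in size for most genes. Mean changes of at least 2-fold that passed the test were found for 4 genes that fell, namely PLK1, CCNA2, BUB1B and BUB3 (6.88% of all genes and 5.35% of all elements), and for 2 that rose, NEK2 and PTTG1 (8.82% of all genes and 6.24% of all elements). Under the rule the study used for candidates, at least 2-fold in at least 6 of 11 lines, 3 genes were higher (CDC25C, NEK2 and PTTG1; 9.16% of all genes and 6.52% of all elements). In the opposite direction, 5 genes were lower by this rule (CCNA2, AURKA, PLK1, BUB1B and BUB3; 7.32% of all genes and 5.8% of all elements). Leaving out K422, Ocily3, Ocily10 or Sudhl6, each in turn, left 1 gene higher by the rule. With median scaling 0 were higher and 14 lower by it, with no normalization 1 and 9, and without HLY-1, Ocily10 and Sudhl4 (6 of 8 lines) 0 and 2. For this rule, shares over all genes are given only for the deposited scaling with all 11 lines. 10 genes were lower in all 11 lines (SMC4, CCNA2, FOXM1, PLK1, BUB1B, BUB3, NDC80, TPX2, UBE2C and ESPL1), beside 7.98% of all genes and 6.15% of all elements. NEK2 was higher in all 11, beside 7.9% of all genes and 5.46% of all elements. The levels of the aza/tsa and untreated groups overlapped for every one of the 37 genes. Over all genes, 0.893% had all aza/tsa levels below all untreated levels and 1.02% the reverse.

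**Figure D2:**
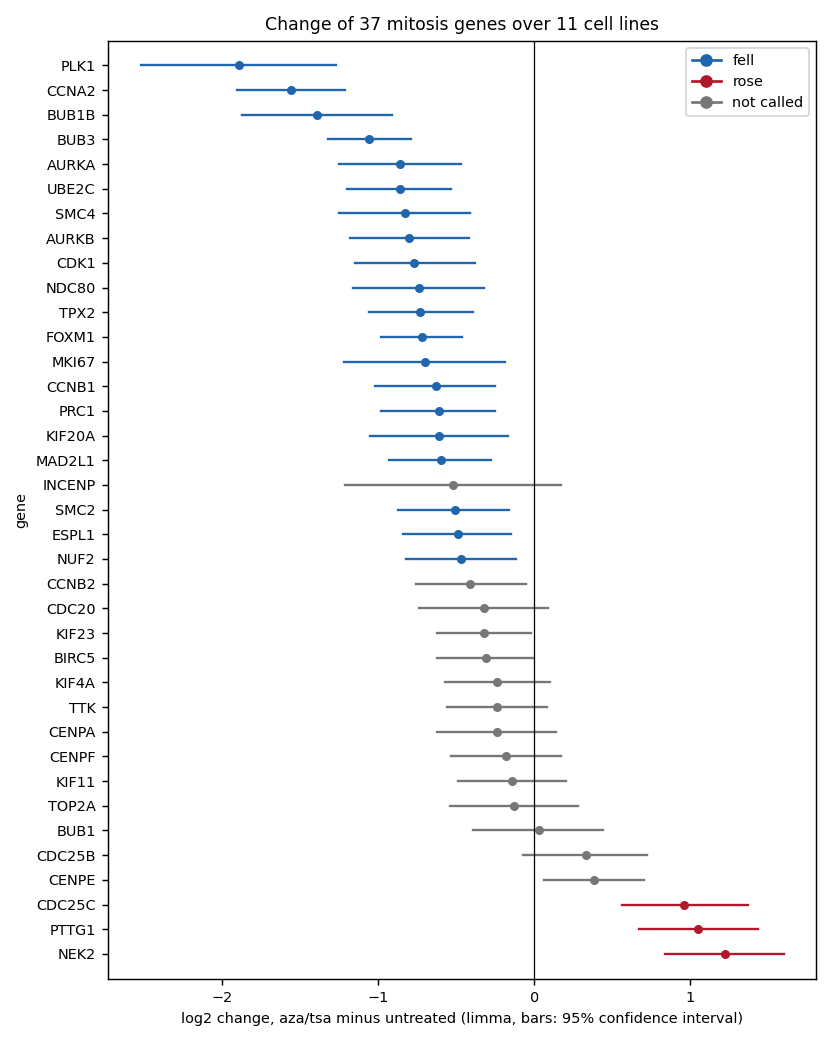
Mean log2 change (aza/tsa minus untreated, limma over 11 cell lines) of each of the 37 mitosis genes, with its 95% confidence interval as a bar. The 20 genes that fell (blue) lie left of 0 down to -1.89 for PLK1, the 3 that rose (red) lie between 0.96 and 1.22, and 14 genes (grey) were not called.

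MKI67 encodes Ki-67, the antigen by which pathologists count cycling cells, which coats the surface of mitotic chromosomes. Its level had a minimum of 10.71, a median of 11.77 and a maximum of 13.17 in aza/tsa cultures, against 11.41, 12.71 and 13.56 in untreated cultures. MKI67 fell by a mean log2 change of -0.70 (SE 0.24, adjusted p = 0.0455, limma), lower in 10 of 11 lines. The differences were widely spread, at -2.00 in Sudhl6, -1.81 in HLY-1, -1.17 in Ramos, -1.05 in Sudhl4, -1.0 in Raji, -0.69 in SC-1, -0.37 in ROS-50, -0.25 in Ocily3, -0.22 in BL41 and -0.04 in Ocily10, with K422 higher at 0.84. The call was lost when any line other than K422 or Ocily10 was left out, with log2 changes between -0.75 and -0.58 and adjusted p between 0.051 and 0.0964 (limma).

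Of the 3 chromosome structure genes, both condensin ATPases fell. SMC4 fell by -0.83 (SE 0.20, adjusted p = 0.00653, limma) and was lower in all 11 lines, with BL41 lowest at -2.25 and Ocily10 at -0.01. SMC2, its partner in the condensin ring, fell by -0.51 (adjusted p = 0.0365, limma), a call that was lost when BL41, HLY-1, K422, Ramos, SC-1, Sudhl4 or Sudhl6 was left out (-0.53 to -0.41, adjusted p between 0.0546 and 0.0742). TOP2A, the topoisomerase that untangles sister chromatids, was not called, with a mean of 17.5 ± 0.4 in aza/tsa and 17.63 ± 0.55 in untreated cultures (SD, n = 11 each) and a change of -0.13 (95% confidence interval -0.54 to 0.28). Its differences pointed both ways, at -1.17 in Sudhl6 and 1.17 in K422.

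In the cyclin-CDK1 switch, 3 of 6 genes fell, 1 rose and 2 were not called. CCNA2 encodes cyclin A2, which drives S phase and entry into mitosis, and had the smallest adjusted p of the 37 genes. Its level (element 110863) had a minimum of 12.72, a median of 14.68 and a maximum of 15.59 in aza/tsa cultures, against 14.87, 15.93 and 16.67 in untreated cultures. The difference was -2.28 in BL41, -2.15 in Sudhl6, -1.90 in SC-1, -1.85 in HLY-1, -1.74 in Sudhl4, -1.58 in Ramos, -1.39 in Raji, -1.12 in Ocily3, -1.12 in ROS-50, -1.08 in K422 and -0.93 in Ocily10. Every line was thus lower after treatment and 10 of 11 by at least 2-fold, while the ranges of the groups overlapped because the lines differ in their own level. The mean fold decrease was 2.94 (log2 change -1.56, SE 0.16, adjusted p = 1.2e-05, limma).

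CDK1, the kinase of mitotic entry, fell by -0.77 (SE 0.18, adjusted p = 0.0059, limma) and was lower in 10 of 11 lines. CCNB1, its cyclin B1 partner, fell by -0.63 (adjusted p = 0.0179, limma) and was lower in 9 lines. CCNB2, the second B-type cyclin, changed by -0.41 and was not called (adjusted p = 0.0944, limma), although 10 of 11 lines were lower. K422 stood apart with 0.72, and without K422 the change was -0.52 (adjusted p = 0.0224, limma).

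The CDC25 phosphatases, which remove the inhibitory phosphates from CDK1, did not fall. CDC25C (element 118714) had levels with a minimum of 13.46, a median of 14.05 and a maximum of 14.6 in aza/tsa cultures, against 12.26, 13.23 and 13.77 in untreated cultures. The difference was 1.91 in Ramos, 1.53 in K422, 1.34 in Sudhl6, 1.32 in Ocily10, 1.19 in Ocily3, 1.04 in ROS-50, 0.93 in Raji, 0.83 in Sudhl4, 0.30 in SC-1, 0.28 in HLY-1 and -0.09 in BL41. CDC25C was thus higher in 10 of 11 lines, and BL41, one of the lines in which other genes of the switch were lowest, was the exception. Its mean fold increase was 1.95 (log2 change 0.96, SE 0.19, adjusted p = 0.00172, limma). CDC25B, which starts the activation at the centrosome, was not called, at 0.33 (95% confidence interval -0.07 to 0.72), with 7 lines higher and K422 highest at 1.75.

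FOXM1, the transcription factor that switches on many G2 and M phase genes, fell in all 11 lines and with the smallest spread between lines of the 37 genes (SD of the differences 0.21). It averaged 12.89 ± 0.38 in aza/tsa and 13.61 ± 0.32 in untreated cultures (SD, n = 11 each). The differences ran only between -1.07 in SC-1 and -0.41 in BL41, with a mean of -0.72 (SE 0.12, adjusted p = 5.3e-04, limma).

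Of the 4 mitotic kinases, 3 fell and NEK2 rose. PLK1, the Polo-like kinase of centrosome maturation, kinetochore attachment and cytokinesis, had the largest decrease of the 37 genes. Its level (element 197341) had a minimum of 9.97, a median of 12.7 and a maximum of 14.23 in aza/tsa cultures, against 13.06, 14.96 and 15.58 in untreated cultures. The difference was -4.01 in BL41, -3.21 in Sudhl6, -2.57 in Ramos, -2.28 in Sudhl4, -1.63 in Ocily3, -1.59 in HLY-1, -1.51 in SC-1, -1.48 in Ocily10, -1.23 in K422, -0.95 in ROS-50 and -0.35 in Raji. All lines were lower, 9 of them by at least 2-fold, and Raji, which had the lowest untreated level, changed least. The mean fold decrease was 3.71 (log2 change -1.89, SE 0.29, adjusted p = 2.8e-04, limma).

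The Aurora kinases fell by similar amounts. AURKA, which acts at the spindle poles, fell by -0.86 (SE 0.18, adjusted p = 0.00285, limma), by at least 2-fold in 6 lines. AURKB, the kinase of the chromosomal passenger complex at the centromere, fell by -0.80 (SE 0.18, adjusted p = 0.00423, limma), by at least 2-fold in 5 lines. Both were lower in 10 of 11 lines, and in both the line that was higher was Raji, at 0.20 for AURKA and 0.19 for AURKB.

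NEK2, a kinase that separates the duplicated centrosomes at the onset of mitosis, had the largest increase of the 37 genes. Its level (element 115004) had a minimum of 15.61, a median of 16.59 and a maximum of 16.66 in aza/tsa cultures, against 14.23, 15.17 and 15.98 in untreated cultures. The difference was 2.30 in K422, 1.84 in ROS-50, 1.64 in Raji, 1.23 in Sudhl4, 1.19 in Ocily10, 1.18 in Ramos, 1.12 in SC-1, 0.94 in Sudhl6, 0.89 in BL41, 0.66 in Ocily3 and 0.38 in HLY-1. NEK2 was higher in every line, and its median aza/tsa level lay close to the maximum of that group. The mean fold increase was 2.32 (log2 change 1.22, SE 0.18, adjusted p = 1.8e-04, limma).

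**Figure D3:**
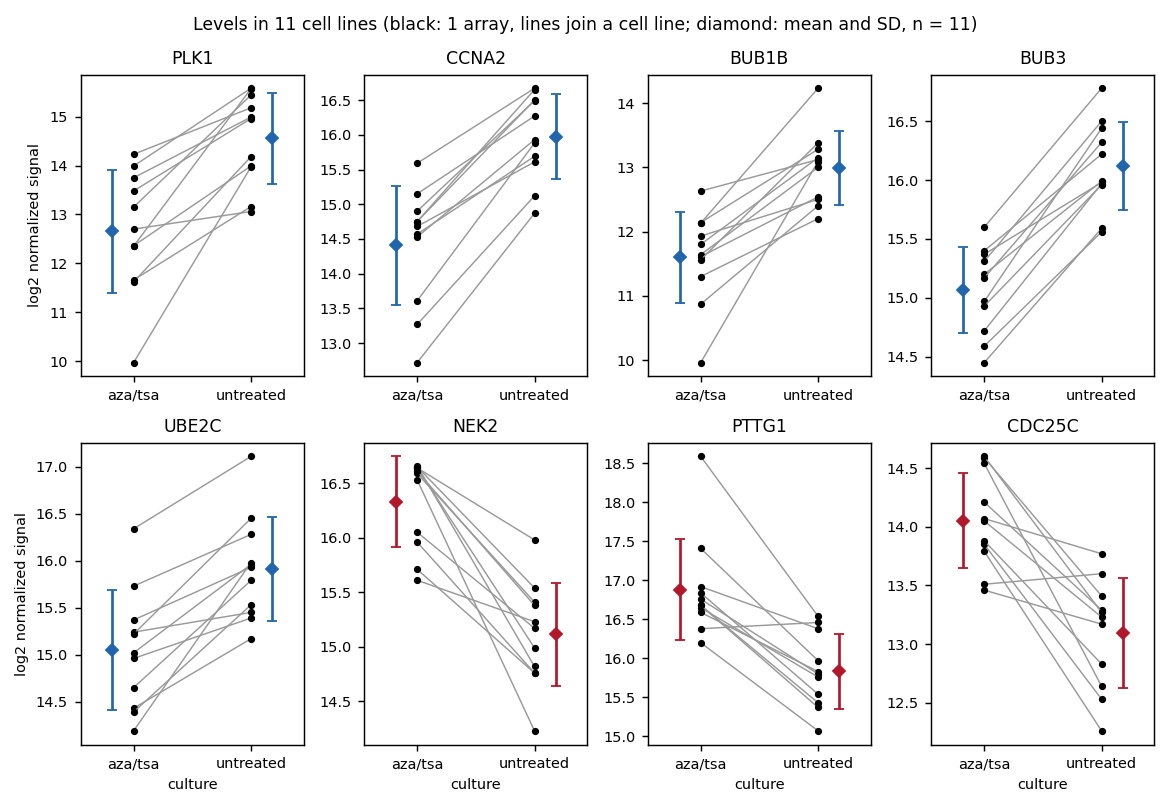
Log2 normalized signal of the 8 most changed mitosis genes in the aza/tsa culture (left) and the untreated culture (right) of 11 cell lines, with grey lines joining the arrays of a line and diamonds with bars giving the mean and SD. All 11 lines slope the same way for PLK1, CCNA2, BUB1B, BUB3, UBE2C and NEK2, and 10 of 11 do for PTTG1 and CDC25C.

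Of the other chromosomal passenger genes listed beside AURKB, BIRC5 and INCENP were not called. BIRC5 encodes survivin, which brings the complex to the centromere, and averaged 15.59 ± 0.37 in aza/tsa and 15.9 ± 0.51 in untreated cultures (SD, n = 11 each), a change of -0.31 (95% confidence interval -0.62 to 0.00, adjusted p = 0.151, limma). The second BIRC5 element also gave -0.31. Under the other scalings BIRC5 was called, at -0.76 with median scaling (adjusted p = 0.00327, limma) and -0.67 with no normalization (adjusted p = 0.0295, limma). INCENP, the scaffold of the complex, changed by -0.52 (adjusted p = 0.292, limma), and had the largest spread of differences, from -3.12 in SC-1 to 0.98 in ROS-50, at levels near the array median.

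Of the 5 spindle checkpoint genes, 3 fell and 2 were not called, with a median change of -0.60. BUB1B encodes BubR1, which binds and inhibits the APC/C with CDC20. Its level (element 156448) had a minimum of 9.96, a median of 11.64 and a maximum of 12.63 in aza/tsa cultures, against 12.2, 13.09 and 14.23 in untreated cultures. The difference was -3.14 in BL41, -2.10 in Sudhl6, -1.82 in Sudhl4, -1.53 in Ocily10, -1.36 in SC-1, -1.34 in Ramos, -1.14 in Ocily3, -0.92 in K422, -0.90 in HLY-1, -0.57 in Raji and -0.49 in ROS-50. BUB1B was thus lower in every line, with a mean fold decrease of 2.62 (log2 change -1.39, SE 0.22, adjusted p = 4.0e-04, limma).

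BUB3, the adaptor that docks BUB1 and BubR1 on the kinetochore, was lower in all 11 lines. Its level (element 217936) had a minimum of 14.45, a median of 15.17 and a maximum of 15.6 in aza/tsa cultures, against 15.56, 15.99 and 16.78 in untreated cultures. The difference was -1.47 in Ocily3, -1.24 in Ocily10, -1.19 in Ramos, -1.18 in K422, -1.15 in Sudhl6, -1.14 in BL41, -1.04 in Sudhl4, -0.97 in HLY-1, -0.82 in SC-1, -0.78 in ROS-50 and -0.61 in Raji. The groups overlapped only because the aza/tsa level of K422, at 15.6, lay above the untreated levels of HLY-1 (15.56) and BL41 (15.59). The mean fold decrease was 2.08 (log2 change -1.06, SE 0.12, adjusted p = 3.4e-05, limma). A second BUB3 element, at a lower signal, also fell in all 11 lines (-0.96, SE 0.18, adjusted p = 0.00115, limma).

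MAD2L1 encodes MAD2, the checkpoint protein that captures CDC20, and fell by -0.60 (adjusted p = 0.00897, limma) in 10 of 11 lines. TTK, the MPS1 kinase that starts checkpoint signalling, changed by -0.24 and was not called (adjusted p = 0.282, limma). BUB1, the kinase that recruits the other checkpoint proteins, averaged 13.74 ± 0.69 in aza/tsa and 13.71 ± 0.73 in untreated cultures (SD, n = 11 each), a change of 0.03 (95% confidence interval -0.39 to 0.44). The sign of this mean turned with the scaling, to -0.28 with median scaling and -0.19 with no normalization. Its lines were split, with 6 higher and 5 lower, between 0.98 in ROS-50 and -1.06 in HLY-1.

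Of the 5 kinetochore genes, 2 fell and 3 were not called, with a median change of -0.24. The genes that fell were NDC80 (-0.74, SE 0.19, adjusted p = 0.0121, limma) and NUF2 (-0.47, adjusted p = 0.0493, limma), which form the arm of the NDC80 complex that grips microtubules. NDC80 was lower in all 11 lines and NUF2 in 9, and the NUF2 call was lost when any line other than Ocily3, Ocily10 or ROS-50 was left out (-0.49 to -0.40, adjusted p between 0.0647 and 0.102, limma). CENPA, the histone that marks the centromere, changed by -0.24, and CENPF, a large protein of the outer kinetochore, by -0.18 (95% confidence interval -0.53 to 0.17). CENPE, a kinesin that moves chromosomes to the spindle equator, was the kinetochore gene with a mean above 0, at 0.38 and higher in 8 of 11 lines, and was not called (adjusted p = 0.0856, limma).

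Of 6 measured spindle motors and microtubule proteins, TPX2, PRC1 and KIF20A fell. TPX2, which activates Aurora A and nucleates microtubules around chromosomes, was lower in all 11 lines (-0.73, SE 0.16, adjusted p = 0.00348, limma). PRC1, which bundles the microtubules of the central spindle, fell by -0.61 (adjusted p = 0.016, limma) and KIF20A, a kinesin of cytokinesis, by -0.61 (adjusted p = 0.043, limma), a call that was lost when any line other than K422, Raji or SC-1 was left out (-0.65 to -0.53, adjusted p between 0.0516 and 0.091). KIF23, KIF4A and KIF11 were not called. KIF11 encodes the kinesin Eg5 that pushes the spindle poles apart, and averaged 15.82 ± 0.61 in aza/tsa and 15.96 ± 0.63 in untreated cultures (SD, n = 11 each), a change of -0.14 (95% confidence interval -0.49 to 0.20).

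Of the 4 genes of anaphase and mitotic exit, UBE2C and ESPL1 fell and PTTG1 rose. UBE2C encodes the ubiquitin-conjugating enzyme that works with the APC/C. Its level (element 143651) had a minimum of 14.19, a median of 15.02 and a maximum of 16.34 in aza/tsa cultures, against 15.17, 15.93 and 17.11 in untreated cultures. The difference was -1.79 in ROS-50, -1.23 in Sudhl4, -1.14 in SC-1, -1.13 in Ramos, -0.94 in K422, -0.77 in HLY-1, -0.75 in Raji, -0.56 in Sudhl6, -0.55 in Ocily3, -0.43 in Ocily10 and -0.21 in BL41. The order of lines was thus another than for PLK1, with BL41 changing least and ROS-50 most, and the mean fold decrease was 1.82 (log2 change -0.86, SE 0.16, adjusted p = 0.00101, limma).

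PTTG1 encodes securin, the inhibitor that holds separase inactive until anaphase. Its level (element 204044) had a minimum of 16.2, a median of 16.68 and a maximum of 18.59 in aza/tsa cultures, against 15.07, 15.8 and 16.54 in untreated cultures. The difference was 2.05 in K422, 1.44 in BL41, 1.32 in Raji, 1.3 in Ocily10, 1.25 in Sudhl6, 1.13 in Ocily3, 0.96 in Ramos, 0.88 in SC-1, 0.76 in HLY-1, 0.54 in Sudhl4 and -0.08 in ROS-50. PTTG1 was higher in 10 of 11 lines, with a mean fold increase of 2.07 (log2 change 1.05, SE 0.18, adjusted p = 5.9e-04, limma). PTTG1 has close copies elsewhere in the genome, and whether its element also binds their transcripts was not tested.

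ESPL1, separase itself, fell by -0.49 (adjusted p = 0.0373, limma), lower in all 11 lines, by -1.11 in Ocily10 and by -0.02 in HLY-1. Its call was lost when BL41, Ocily10, Ramos, SC-1 or Sudhl6 was left out (-0.46 to -0.43, adjusted p between 0.0735 and 0.0842, limma). CDC20, the APC/C coactivator on which the checkpoint acts, averaged 14.3 ± 0.76 in aza/tsa and 14.62 ± 0.73 in untreated cultures (SD, n = 11 each). Its change of -0.32 was not called (95% confidence interval -0.74 to 0.09), with BL41 at -1.56 and Raji at 0.96, and its second element gave -0.22.

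**Figure D4:**
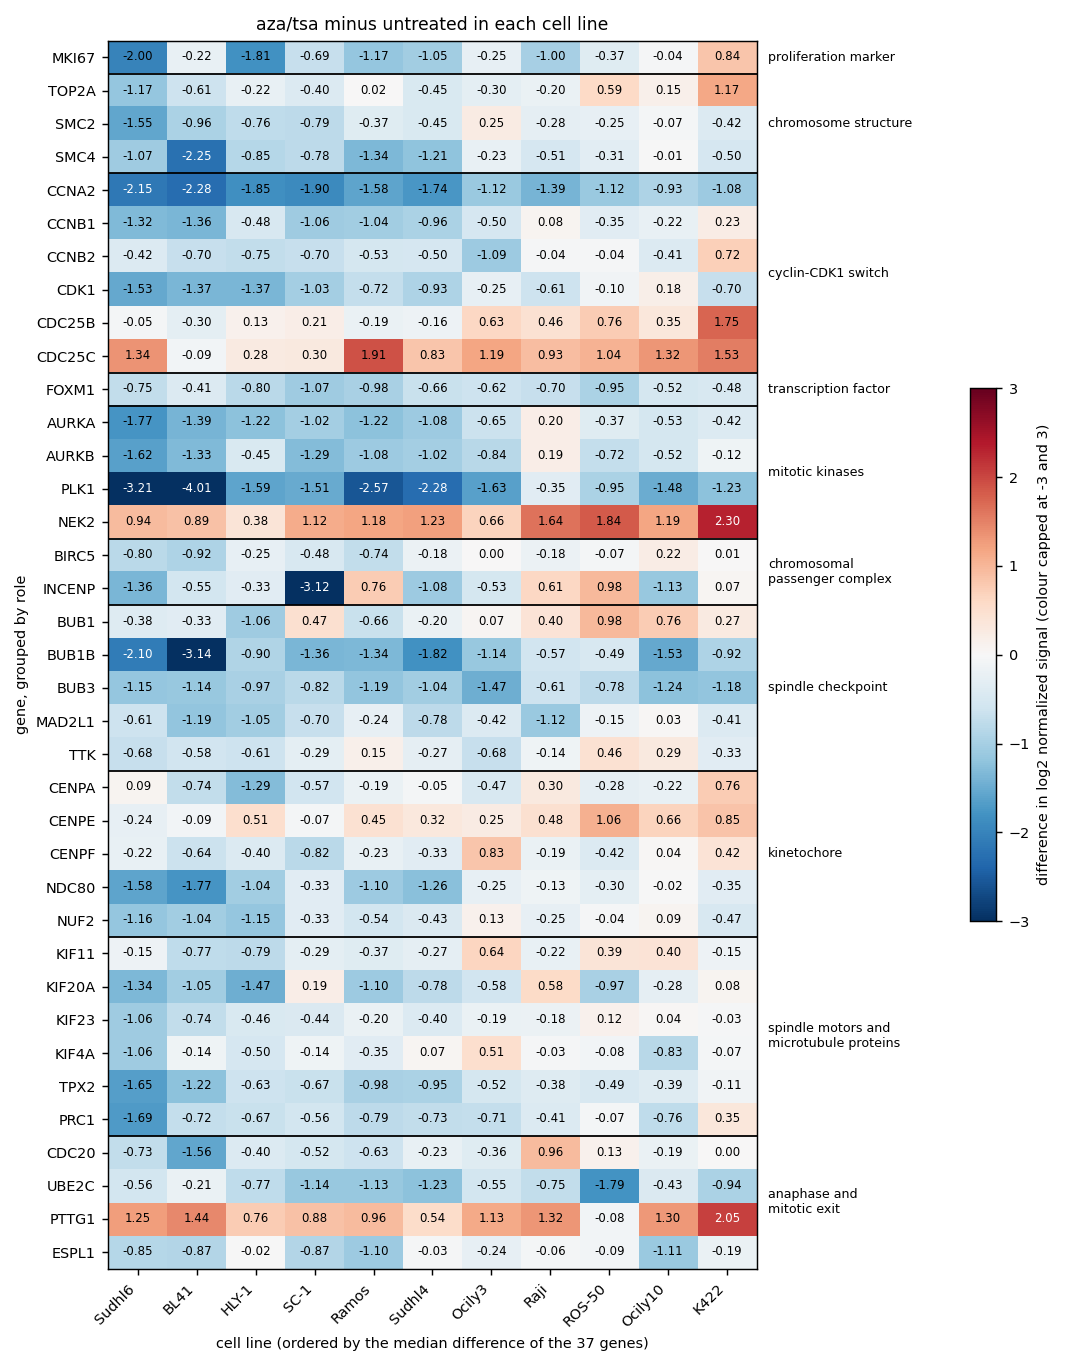
Difference in log2 normalized signal (aza/tsa minus untreated) of each of the 37 mitosis genes (rows, grouped by role) in each of 11 cell lines (columns, ordered by the median difference), with the value printed in each cell and colours capped at -3 and 3. Rows of CCNA2, FOXM1, PLK1, BUB1B and BUB3 are blue throughout, the row of NEK2 is red throughout, and blue fades towards the columns of ROS-50, Ocily10 and K422.

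The lines differed in the size of the decrease. The median difference of the 37 genes was -1.06 in Sudhl6, -0.77 in BL41, -0.75 in HLY-1, -0.67 in SC-1, -0.66 in Ramos, -0.50 in Sudhl4, -0.30 in Ocily3, -0.18 in Raji, -0.10 in ROS-50 and -0.07 in both K422 and Ocily10. The median of all genes stayed between -0.06 and 0.03 in every line. In Sudhl6, 33 genes were lower, 20 of them by at least 2-fold, and in BL41, 35 genes were lower, 15 by at least 2-fold. In K422, 20 genes were lower and 16 higher, and 3 were lower and 5 higher by at least 2-fold. With 1 culture per condition, these medians have no replicate within a line, and neighbours in this order were not tested.

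The order of the lines also depended on the scaling. With the raw signals scaled to a common median, the line medians ran between -1.38 in Sudhl6 and -0.23 in Ocily10, and with no normalization between -1.54 in Sudhl6 and 0.01 in ROS-50. Values without normalization also contain the difference in brightness between the arrays of a line. The median raw signal was 1129.6 in aza/tsa and 834.2 in untreated ROS-50, and 1181.8 and 1319.0 in Sudhl6. Sudhl6 was lowest in each of the 3 scalings. Ramos was at -1.29 with median scaling, below BL41 (-1.26) and HLY-1 (-1.13). K422 was at -0.59 with median scaling, below Raji (-0.47) and ROS-50 (-0.43), and SC-1 at -0.33 with no normalization. PLK1 was the lowest gene of the 37 in BL41, Sudhl6, Ramos, Sudhl4, Ocily3 and K422, CCNA2 in HLY-1 and Raji, BUB1B in Ocily10, UBE2C in ROS-50 and INCENP in SC-1. In every line the highest gene was NEK2, PTTG1 or CDC25C.

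**Figure D5:**
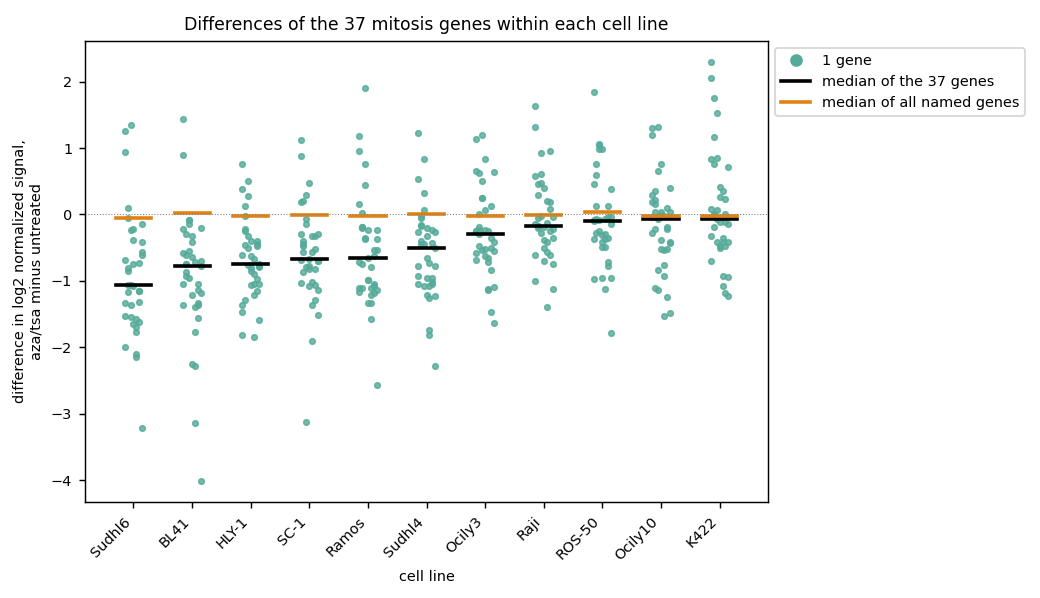
Difference in log2 normalized signal (aza/tsa minus untreated) of the 37 mitosis genes (points) in each of 11 cell lines, with the median of the 37 genes (black) and of all 15461 genes (orange). The black bars rise in steps between -1.06 in Sudhl6 and -0.07 in K422 and Ocily10, while the orange bars stay near 0.

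The spread of the 37 genes between lines was similar in the groups. The SD over 11 lines had a median of 0.56 in aza/tsa cultures, between 0.34 for PRC1 and 1.26 for PLK1, and of 0.51 in untreated cultures, between 0.32 for FOXM1 and 1.32 for INCENP. The SD of the differences had a median of 0.54, against 0.78 over all genes.

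For 9 pairs of related genes, the differences were set against each other within each line (two-sided exact sign-flip permutation test over 11 lines, adjusted over the 9 pairs, smallest possible raw p 9.8e-04), and 3 pairs differed. The pairs were chosen with earlier results of these data known, so the p-values describe the chosen pairs and are not an independent test. CCNA2 fell more than CCNB1 in 11 of 11 lines, the difference between them being 0.92 ± 0.31 (SD, n = 11, exact permutation adjusted p = 0.0088). The treated minus untreated difference of BUB3 lay below that of BUB1 in 10 of 11 lines, by 1.08 ± 0.60 (SD, n = 11, exact permutation adjusted p = 0.0088). That of CDC25C exceeded that of CDC25B in 10 of 11 lines, by 0.64 ± 0.67 (SD, n = 11, exact permutation adjusted p = 0.015). Without HLY-1, Ocily10 and Sudhl4 the value for CDC25C minus CDC25B was 0.61 and no longer passed (exact permutation adjusted p = 0.094).

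The other 6 pairs did not pass. AURKA minus AURKB was -0.06 ± 0.30 (SD, n = 11, exact permutation adjusted p = 0.56), the closest pair, and CCNB1 minus CCNB2 was -0.23 ± 0.46 (SD, n = 11, exact permutation adjusted p = 0.18). NDC80 minus NUF2 was -0.27 ± 0.35 (SD, n = 11, exact permutation adjusted p = 0.064), SMC2 minus SMC4 was 0.31 ± 0.52 (adjusted p = 0.13), CDC20 minus MAD2L1 was 0.28 ± 0.69 (adjusted p = 0.23) and BUB1B minus BUB3 was -0.34 ± 0.70 (adjusted p = 0.18).

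A further 108 genes of mitosis were listed by role, of which 100 were measured. Among these 36 fell, 11 rose and 53 were not called (limma), with a median change of -0.20, beside 15.2% of all genes that fell and 15.1% that rose. With median scaling 51 fell and 4 rose, with no normalization 35 and 4, and without HLY-1, Ocily10 and Sudhl4 26 and 7. With the filter on dim elements 40 of the 100 fell and 13 rose, beside 4273 and 3931 of the 16945 elements kept. Of 11 measured condensin and cohesin genes, 5 fell and 0 rose by the limma test, with a median of -0.61. Apart from STAG2, those that fell were NCAPH, a condensin subunit, and SMC1A, SMC3 and RAD21 of the cohesin ring, between -0.61 and -0.98. Of 14 APC/C subunits and coactivators 6 fell and 2 rose, and of 29 kinetochore and checkpoint genes 11 fell and 3 rose. Of 23 spindle and cytokinesis genes 6 fell and 3 rose, and of 13 entry and exit regulators 4 fell and 1 rose. Of 10 regulators of mitotic gene transcription 4 fell and 2 rose.

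The 3 largest decreases in this wider list were larger in size than that of PLK1. PMF1, a subunit of the MIS12 kinetochore complex, averaged 10.72 ± 0.56 in aza/tsa and 13.72 ± 0.38 in untreated cultures (SD, n = 11 each), a change of -3.0 (SE 0.18, adjusted p = 5.4e-07, limma) with no overlap of the groups. WEE1, the kinase that holds CDK1 inactive, averaged 10.16 ± 1.29 in aza/tsa and 12.72 ± 0.91 in untreated cultures, a change of -2.55 (SE 0.33, adjusted p = 7.5e-05, limma), and was above the array median in 5 of 11 aza/tsa and 11 of 11 untreated arrays. STAG2, a cohesin subunit, averaged 11.94 ± 0.69 in aza/tsa and 14.44 ± 0.52 in untreated cultures, a change of -2.51 (SE 0.21, adjusted p = 2.8e-06, limma), again without overlap. All 3 were at least 2-fold lower in all 11 lines.

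The largest increases were in an inhibitor of the cell cycle, a checkpoint gene and a MuvB subunit. CDKN1A encodes p21, which inhibits cyclin-dependent kinases, and averaged 14.99 ± 0.78 in aza/tsa and 13.02 ± 1.86 in untreated cultures (SD, n = 11 each), a change of 1.97 (SE 0.40, adjusted p = 0.00222, limma). It was higher in all 11 lines, between 0.26 in HLY-1, where the untreated level was already 16.27, and 4.22 in ROS-50. KNTC1, which helps to bring dynein and the MAD proteins to kinetochores, changed by 1.42 (SE 0.27, adjusted p = 0.00143, limma), and LIN37, the MuvB subunit needed for repression of CHR genes, by 1.27 (SE 0.16, adjusted p = 5.5e-05, limma). Both were higher in all 11 lines and lowest in ROS-50, at 0.13 and 0.38. The measured MuvB subunits did not move together. LIN9 fell by -1.81 (SE 0.15, adjusted p = 2.6e-06, limma) with no overlap of the groups, and LIN54, at -0.41, was not called. MYBL2, which encodes B-MYB, fell by -0.87 (adjusted p = 0.00676, limma).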

How the data were processed

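RNA of 11 cell lines, each as 1 aza/tsa and 1 untreated culture, had been hybridised to 22 one-colour Applied Biosystems Human Genome Survey arrays, read by chemiluminescence. The authors deposited the raw intensity of each element, unlogged, and a log2 table that the methods credit to ABarray and Bioconductor. The deposited log2 values equal quantile normalization of the raw signals within 5e-09, each column has a median of 10.18, and they hold levels. Total RNA per cell is not recoverable after this normalization. Of 32878 elements, 17073 have exactly 1 symbol in the platform annotation (updated by Entrez identifier in a RefSeq table of GRCh38.p14), 139 have several and 15666 are unnamed here.

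Moderated tests were run for every element in limma 3.58.1 (R 4.3.3), two-sided, with the cell line as block and Benjamini-Hochberg adjustment over all elements at 0.05. Arrays were paired by cell line. Their deviations from the group means correlated at 0.361 to 0.585, against -0.222 to 0.18 between lines, and each of the 11 lines had its own second array as best match. The cultures are separate lines, and their number limits the precision. The scripts were tested on simulated data.

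The mitosis genes, the further lists, the gene pairs and the tests were chosen with earlier results of these data known. Values by line are given for the 8 genes with the largest change past the threshold and MKI67, and in the heat map for all. Of the genes not called, the one with the smallest change in each role is described, and of the further mitotic genes the 3 largest decreases and increases. Alternatives were median scaling, no normalization, a floor at the 25th percentile, a filter on dim elements, other folds and line counts for the 2-fold rule, a mean-variance trend, no block, means over elements and lines left out. The filter kept elements above the array median in 6 or more of the 11 arrays of the group with the higher mean. It thus selects on the group where an element is high. The sources differ on the labelling kit.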

Additional observations from a re-analysis of the deposited data

How the results depend on the processing

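Of the 23 mitosis genes called, none changed direction in the 19 settings tried for each. Some settings could not turn a direction. The variance trend, the filter on dim elements and the fit with no block leave the log2 change as it is. The mean over elements alters only genes with several elements. The same call was made in every setting for 12 of them, and with each line left out in turn for 18, the others being MKI67, SMC2, NUF2, KIF20A and ESPL1. NEK2, PTTG1 and CDC25C were higher and passed the limma test in all of them, with log2 changes down to 0.77, 0.58 and 0.67 under median scaling. Median scaling shifted the median of all elements to -0.15, beside -0.03 in the deposited table, and 30 mitosis genes fell and 3 rose (5637 elements fell and 2603 rose, beside 4064 and 3674). Without normalization the median was -0.06, and 19 fell and 3 rose (4168 and 2795 elements). CENPE, at 0.38, also rose with the floor, the filter on dim elements or the variance trend.

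Under median scaling 14 mitosis genes were lower and 0 higher by the 2-fold rule, 51 of the further mitotic genes fell and 4 rose, SMC2 minus SMC4 passed the exact permutation test at 0.42, and AURKA minus AURKB (0.01) and the change of BUB1 (-0.28) turned sign. Without normalization, in the same order, these values were 9 lower, 1 higher, 35 and 4, 0.42, 0.01 and -0.19. The pair values (0.42 and 0.01) must equal those of median scaling, because a shift of a whole array cancels between genes. Without HLY-1, Ocily10 and Sudhl4, 12 mitosis genes fell and 3 rose (3220 elements fell and 3067 rose), and 7 further genes rose. By the 2-fold rule at 6 of 8 lines, 2 mitosis genes were lower and 0 higher. CDC25C minus CDC25B was 0.61 and AURKA minus AURKB 0.02. With no replicate block, which drops the pairing of the arrays of a line, 10 mitosis genes fell and 3 rose, 21 further genes fell and 6 rose, and 2136 elements fell and 2059 rose. By the rule at 1.5-fold 15 genes were lower, at 3-fold 1 was lower and 0 higher, and at 7 of 11 lines 1 was higher. No share over all genes is given for the rule in these other settings, so these counts cannot be set against a background. The cause of these differences between settings was not tested.

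With each line left out, 15 to 19 mitosis genes fell and 3 rose, while 3616 to 3976 elements fell and 3323 to 3559 rose. The median of the mitosis genes lay between -0.54 and -0.43, 1 to 3 were higher and 4 to 5 lower by the 2-fold rule, and 30 to 34 further genes fell and 8 to 12 rose. AURKA minus AURKB lay between -0.10 and 0.01 (above 0 without HLY-1), NDC80 minus NUF2 between -0.31 and -0.21 (passing without Raji, -0.31) and SMC2 minus SMC4 between 0.21 and 0.39 (passing without Sudhl6, 0.39). BUB1 lay between -0.07 and 0.14, and turned to -0.04 without Ocily10, -0.01 without Raji, -0.07 without ROS-50 and -0.02 without SC-1.

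With 1 culture per line and condition, no value has a replicate within a line, and 11 lines limit small changes. INCENP, near the array median, is the least precise of the 37 genes.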
